A study of Mus musculus with 40 samples.

Results

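The strain by allergen interaction in mouse lung 6 h after aspiration asks whether allergen moved a gene by the same amount in C3H mice as in AJ mice. It is the allergen effect in C3H (allergen minus PBS, the saline vehicle) minus the allergen effect in AJ, so a negative value means that the allergen effect was lower in C3H and a positive value that it was higher. The interaction rests on 4 groups of 5 arrays: AJ with PBS, AJ with allergen in PBS, C3H with PBS and C3H with allergen in PBS. These 20 arrays were chosen by their titles from 40, the other 20 being the same groups at 24 h. Total RNA of whole lung was measured, and 12393 genes were tested, each represented by its brightest probe set. Levels are deposited intensities on a linear scale, effects are differences of log2(intensity + 16), and adjusted p-values come from limma with Benjamini-Hochberg adjustment over all genes. A gene was called at an adjusted p under 0.05, and the words rose, fell and changed are kept for called effects.

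The labels limit what the groups stand for. The allergen is OVA in the titles and HDM in the descriptions, so it is called allergen here. Every description names AJ and calls it hyperresponsive, while 20 titles carry C3H, so strain was read from the titles. Sex, age, substrain, sensitization and pooling are not given, and nothing says that the numbered arrays of a group were separate mice, so the p-values reflect how far these samples spread, and that may be technical. Hc, the gene of complement component C5, is known to carry an inactivating mutation in A/J mice and bears on the strain labels. It read 310, 306, 294, 316 and 331 on the AJ PBS arrays and 924, 711, 880, 1204 and 1208 on the arrays titled C3H with PBS. With allergen it read 563, 535, 350, 388 and 346 in AJ and 884, 1039, 1073, 935 and 981 in C3H, so the strains did not overlap under either treatment. Alveolar epithelium markers were measured in all 4 groups, with summed intensities of 35774 to 50780.

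In allergic airway disease, inhaled allergen acts on airway epithelium and resident immune cells, which release early cytokines and chemokines that draw granulocytes into the lung. Interleukins 4 and 13 turn airway epithelium toward mucus production, and interferons drive separate sets of antiviral genes and of antigen presentation genes. AJ mice are widely used as a strain with reactive airways and C3H mice as a strain with less reactive ones. A strain interaction differs from a strain difference, because a gene that is higher in C3H by the same amount with and without allergen has none.

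Array medians ran from 63.7 to 81.3. In AJ they were 69.2 to 77 with PBS and 63.7 to 74.6 with allergen. In C3H they were 67 to 80.4 with PBS and 70.2 to 81.3 with allergen. The array of C3H PBS replicate 2 stood apart: its mean correlation with its own group was 0.938, against 0.960 to 0.971 for the other 19. The array of C3H allergen replicate 2 was, of all 5 in its group, the most like the AJ allergen group (correlation with that group's mean 0.971, against 0.957 to 0.965). Without both arrays, a choice made after seeing the data, 408 genes were called in place of 267. Cardiac and skeletal muscle markers varied widely within each group, with summed intensities from 4479 to 27750. None of 33 was called in the interaction, which says little with such a spread and with 2.15% of all genes called.

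The interaction was called for 267 of 12393 genes (2.15%). It was negative for 125 (1.01%) and positive for 142 (1.15%). Centring each array on its median called 204 genes, 193 of them among the 267, and split them into 136 negative and 68 positive (33.3% positive, against 53.2%), so the balance between the signs depends on the scaling. The median interaction over all genes was 0.06. The size passed 1 on the log2 scale for 103 called genes. On the 6 h arrays alone 112 genes were called, and with array weights 478. Without AJ allergen replicate 1 the positive calls numbered 238.

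Most called genes had moved in AJ and moved less in C3H. Of the 125 negative genes, 72 rose in AJ and were not called in C3H, and 40 rose in both strains. Of the 142 positive genes, 112 fell in AJ and were not called in C3H, and 13 fell in both. The allergen effect alone was called for 2358 genes in AJ (19.0%; 7.03% rose and 12% fell) and 944 in C3H (7.62%; 3.93% rose and 3.69% fell). Among the 267, the AJ effect was the larger in size for 241, beside 7147 of all 12393 genes. Median effects were 1.31 in AJ and 0.20 in C3H over the negative genes, and -0.80 and -0.00 over the positive genes. The counts among the 267 and these medians describe genes chosen by the same contrast and test nothing further. With PBS alone, C3H and AJ differed for 44 of the 267 genes (4.45% of all genes were called in that comparison), and with allergen for 210 (9.31% of all genes).

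**Figure D1:**
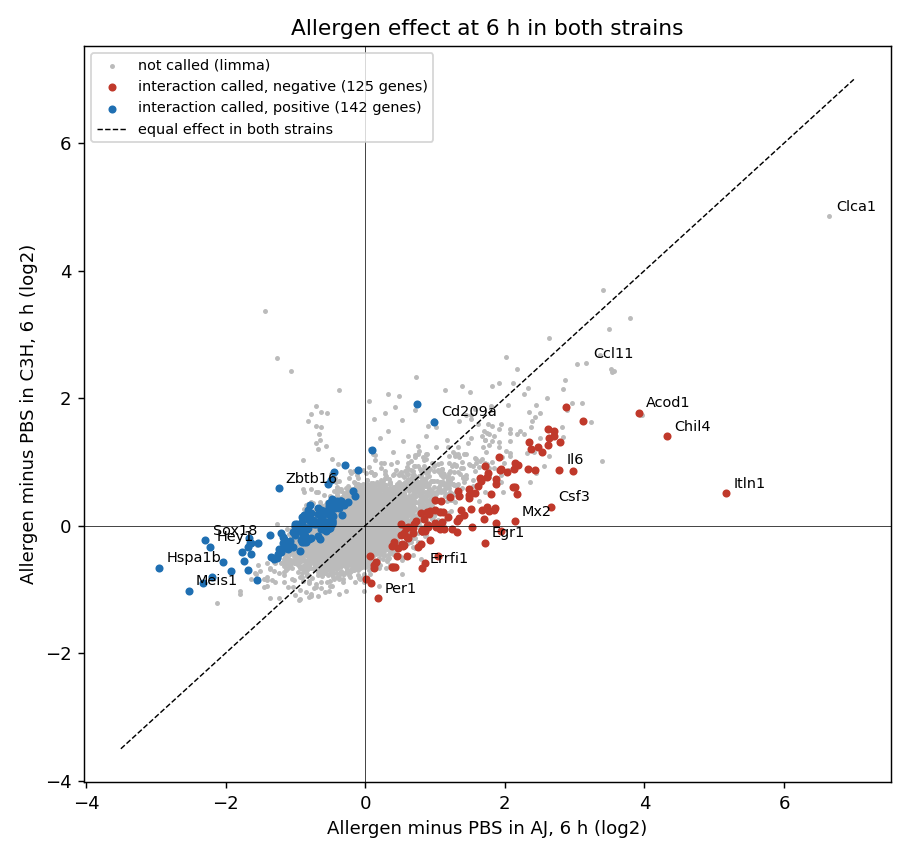
Allergen effect at 6 h in AJ (x axis, log2) against C3H (y axis, log2), with 1 point per gene; red marks the 125 genes called with a negative interaction, blue the 142 with a positive one, and the dashed line equal effects. Red genes lie below the dashed line and mostly to the right of 0 on the x axis, blue genes above it and mostly to the left, and Clca1 lies far to the right among genes that were not called.

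Effects of opposite direction were uncommon. Adamts1, a secreted matrix protease, rose by 1.05 in AJ and fell by 0.47 in C3H, an interaction of -1.52 ± 0.21 (SE, adjusted p = 2.64e-05 by limma). Errfi1, a feedback inhibitor of the EGF receptor, rose by 0.82 and fell by 0.67. Dennd1a, named after its values were seen because the count was 3, rose by 0.85 and fell by 0.59. In the other direction 4 genes fell in AJ and rose in C3H, and all were named after their values were seen: Ddx18, Dspp, Farsb and Pum3, with interactions of 0.89, 1.19, 0.79 and 0.72. For 18 genes with a called interaction, the allergen effect was called in C3H and not in AJ, which does not show that AJ had none. Among these, Per1, a clock repressor that glucocorticoids also induce, had an AJ effect of 0.18 and fell by 1.14 in C3H (interaction -1.32 ± 0.29, adjusted p = 0.00798 by limma). Its 5 C3H allergen arrays read 81.8 to 217, below all 5 of the C3H PBS group at 291 to 425.

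Among called genes, the most negative interactions were those of Itln1, a goblet cell gene, and Chil4, a type 2 gene. Itln1, a lectin that goblet cells secrete, rose from 31.9, 3.71, 3.49, 5.99 and 16.2 on the AJ PBS arrays to 1113, 1053, 1059, 936 and 632 on the AJ allergen arrays. In C3H it read 2.09, 3.14, 2.23, 2.55 and 3.28 with PBS and 6.95, 33.4, 8.85, 4.16 and 7.32 with allergen. The AJ allergen arrays stood far above all 15 others, and the C3H allergen arrays only a little above the C3H PBS arrays. The interaction was -4.66 ± 0.37 (adjusted p = 7.49e-11 by limma), with AJ at 5.17 and C3H at 0.51, not called. Its size depends on the pseudocount because the PBS values are dim: it was -5.10 with a pseudocount of 1 and -3.56 with 64. Itln1 has a close relative, Itln2, whose RNA the probe set may also bind.

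Chil4, a chitinase-like protein of alternatively activated macrophages and airway epithelium, came next. It read 57.4, 32.6, 32.3, 46.7 and 36.3 with PBS and 1277, 1405, 1434, 794 and 832 with allergen in AJ. The C3H arrays read 44, 66, 63.7, 45.7 and 26.7 with PBS and 128, 130, 101, 173 and 272 with allergen. It rose in both strains, by 4.32 in AJ and 1.40 in C3H, with no overlap between treatments in either and none between the allergen groups. The interaction was -2.92 ± 0.42 (adjusted p = 3.67e-05 by limma). Chil4 shares sequence with Chil3, so its probe set may not separate them.

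Of 25 measured mucus and goblet cell genes, 4 were called (2.15% of all genes were). Muc5ac, the inducible gel-forming mucin, was at 136 to 294 on AJ allergen arrays and 16.6 to 141 on C3H allergen arrays, against 8.42 to 24 on the 10 PBS arrays. Its interaction was -2.13 ± 0.45 (adjusted p = 0.00537 by limma), and the highest C3H allergen value, replicate 2, overlapped the AJ allergen range. Fcgbp, a mucus-bound protein, rose in both strains with an interaction of -1.17 ± 0.29 (adjusted p = 0.0182 by limma). Foxa2, a transcription factor that restrains goblet cell formation, had a positive interaction of 0.81, falling by 0.86 in AJ with -0.05 in C3H. Clca1, a goblet cell secretory protein, had the largest rises of these genes, 6.64 in AJ and 4.85 in C3H, and its interaction of -1.79 ± 0.78 was not called (adjusted p = 0.268 by limma). It ran from 3907 to 4579 with allergen in AJ and from 679 to 2490 in C3H, while PBS arrays ran from 1.9 to 107. The mean of its probe sets gave -1.59 and was called (adjusted p = 0.0471 by limma).

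The type 2 cytokines themselves showed no called interaction. Il4 rose by 1.25 in AJ and 0.75 in C3H (interaction -0.50 ± 0.24), Il13 by 1.19 and 0.72 (-0.47 ± 0.29) and Il5 by 0.68 and 0.64 (-0.04 ± 0.26). Their adjusted p-values by limma were 0.348, 0.517 and 0.969, and the sign for Il5 turned under several settings. PBS levels of Il13 and Il5 were near or below the pseudocount of 16, at 3 to 9.32 and 1.88 to 17.1. Their allergen arrays read 8.27 to 41 and 9.21 to 35.9. With a pseudocount of 1 their interactions were -0.84 and -0.37, neither called. For Il4, C3H minus AJ was -0.82 with allergen (adjusted p = 0.0012 by limma) and -0.31, not called, with PBS. Equal effects in both strains are thus not shown. Ccl11, or eotaxin, which draws eosinophils, rose by 3.17 and 2.55 with an interaction of -0.62 ± 0.39 (adjusted p = 0.512 by limma). In all, 23 of 33 type 2 response genes rose in each strain and 3 were called in the interaction: Chil4, Cish (-0.78) and, positive, Cd209a (0.64). Cd209a, a lectin of dendritic cells, rose by 0.99 in AJ and more in C3H, by 1.63. None of 8 eosinophil markers was called, which says little for so few genes with 2.15% of all genes called.

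**Figure D2:**
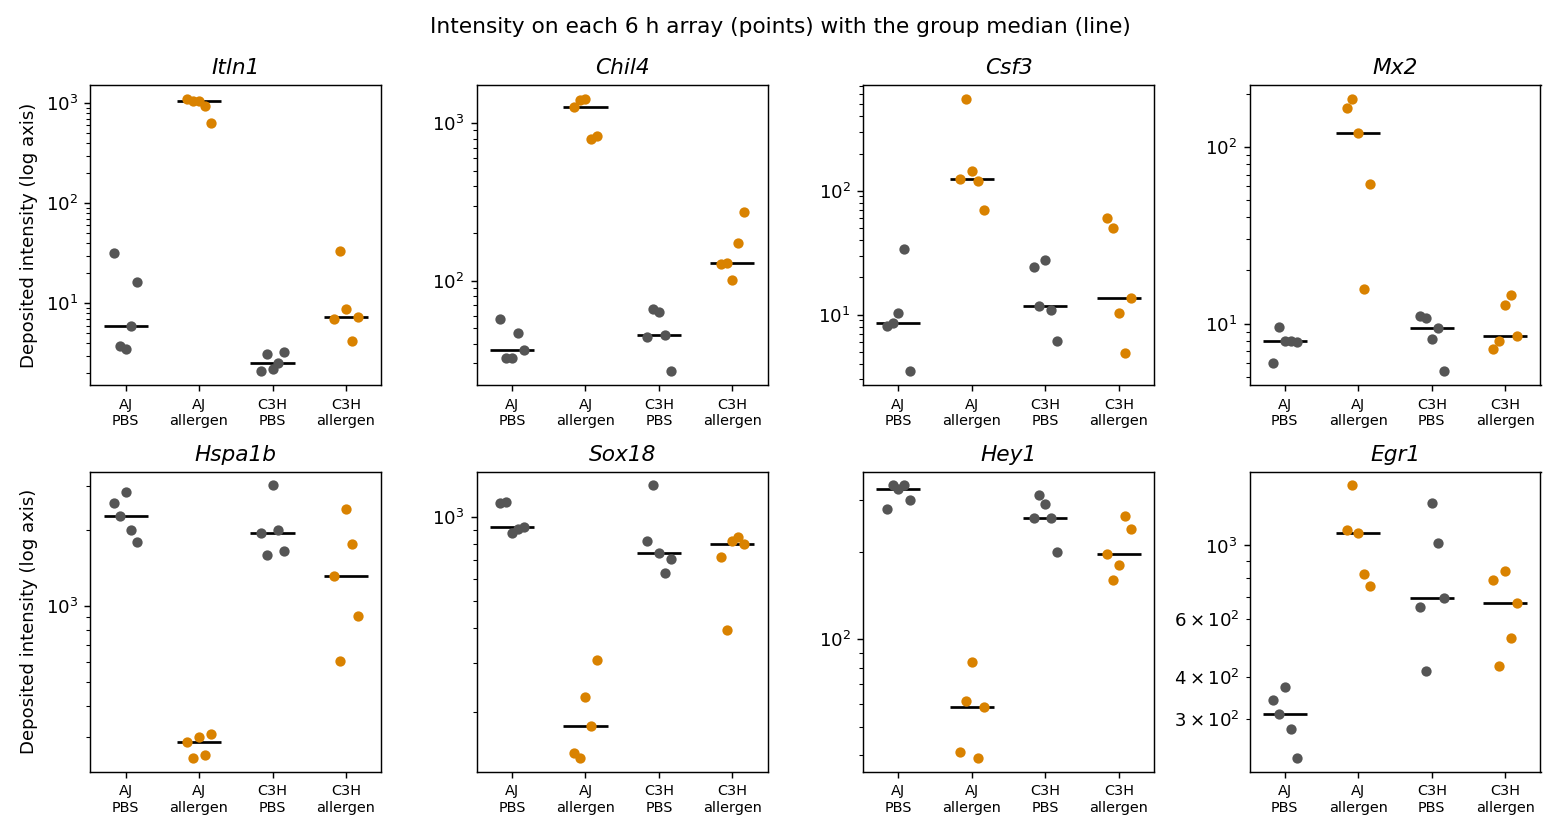
Deposited intensity of 8 genes on each 6 h array (points, log axis) by group, with the group median as a line; grey is PBS and orange allergen. For Itln1, Chil4, Csf3 and Mx2 the AJ allergen arrays stand above all others, for Hspa1b, Sox18 and Hey1 they stand below all others, and for Egr1 the C3H PBS arrays lie above the AJ PBS arrays.

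Early cytokine and acute phase genes were the next group, with 9 of 48 called, all negative; 30 of the 48 rose in AJ and 28 in C3H, and the list median was -0.14. Csf3, or G-CSF, which drives neutrophil production, read 8.02, 8.52, 10.3, 34 and 3.48 with PBS and 125, 556, 144, 120 and 70.1 with allergen in AJ. C3H values were 24.3, 11.7, 27.8, 10.9 and 6.11 with PBS and 60, 50.5, 10.3, 4.9 and 13.7 with allergen. Every AJ allergen array lay above every C3H array, and the C3H groups overlapped. The interaction was -2.36 ± 0.50 (adjusted p = 0.00512 by limma).

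Acod1, the enzyme that makes itaconate in activated macrophages, was dim on all PBS arrays: 2.23, 3.23, 2.39, 4.16 and 1.95 in AJ and 2.1, 2.09, 2.3, 2.23 and 2.28 in C3H. With allergen it read 363, 435, 260, 158 and 209 in AJ and 132, 137, 10.2, 17.7 and 29.7 in C3H. It rose in both strains, with C3H replicates 1 and 2 well above the other 3. The interaction was -2.15 ± 0.45 (adjusted p = 0.00437 by limma), and with a pseudocount of 1 it was no longer called (-2.49, adjusted p = 0.0558 by limma). Il6 rose by 2.78 and 0.88 with an interaction of -1.90 ± 0.30 (adjusted p = 0.000178 by limma); its C3H allergen arrays were tight, at 34.5 to 41.5, and its AJ allergen arrays ran from 127 to 599. Ptx3, a secreted pattern receptor, had an interaction of -1.48. The inhibitors of cytokine signalling Bcl3, Zc3h12a, Socs3 and Tnfaip3 had interactions of -1.35, -1.27, -1.02 and -0.93, and the anti-inflammatory cytokine Il10 had -0.92. All 9 rose in AJ. On the 6 h arrays alone, 5 of the 48 were called.

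Interferon-stimulated antiviral genes mostly rose in AJ and were mostly not called in C3H. Of 28 measured, 20 rose in AJ and 6 in C3H, and 9 had a called interaction, all negative: Mx2, Rsad2, Oasl1, Mx1, Usp18, Ifit1, Ifih1, Ifit2 and Rtp4. The list median was -0.43. Mean log2 level over the list ran from 7.46 to 8.03 on the AJ allergen arrays and from 7.10 to 7.25 on the C3H allergen arrays, with PBS arrays between 6.87 and 7.03. Rsad2, or viperin, and Ifit1, which binds viral RNA, are shown because their upstream 250 bases hold the core of the interferon response element, GAAA repeated after 2 bases of any kind, marked in capitals (as printed, its reverse complement). The sequences are from RefSeq, build GRCm38.p6: chr12:26456453-26456702 on the minus strand for Rsad2, with the match 120 bases before the start, and chr19:34640639-34640888 on the plus strand for Ifit1, with matches 104 and 85 bases before it.
Rsad2: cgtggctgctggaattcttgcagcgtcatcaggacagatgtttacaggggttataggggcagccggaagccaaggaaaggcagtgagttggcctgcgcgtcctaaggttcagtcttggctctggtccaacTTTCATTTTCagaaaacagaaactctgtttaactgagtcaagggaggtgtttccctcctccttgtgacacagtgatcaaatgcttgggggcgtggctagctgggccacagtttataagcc
Ifit1: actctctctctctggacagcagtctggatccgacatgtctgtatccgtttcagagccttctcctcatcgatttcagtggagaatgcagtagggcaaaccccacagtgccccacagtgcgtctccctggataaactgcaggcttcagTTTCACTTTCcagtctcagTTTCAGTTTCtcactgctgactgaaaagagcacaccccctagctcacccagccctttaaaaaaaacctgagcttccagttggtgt

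Of the 9 called genes, 5 had an upstream window in the table and 2 held this core on either strand, against 2.98% of 32851 windows of the same length. A match describes letters only.

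Mx2, a dynamin-like GTPase that blocks viruses, read 5.94, 9.58, 7.92, 7.93 and 7.88 with PBS and 167, 189, 120, 15.8 and 62 with allergen in AJ. Among C3H arrays it was at 11.1, 10.7, 8.2, 9.44 and 5.35 with PBS and 7.21, 7.93, 12.8, 14.6 and 8.49 with allergen. All 5 AJ allergen arrays lay above all others, replicate 4 only just, and the C3H groups overlapped. The interaction was -2.07 ± 0.35 (adjusted p = 0.000413 by limma). Because the gene is dim outside that group, it ranged from -3.09 with a pseudocount of 1 to -1.14 with 64. Rsad2, far brighter, ran from 142 to 276 with PBS and from 455 to 1169 with allergen in AJ, and from 186 to 218 and 160 to 293 in C3H. Its interaction was -1.83 ± 0.30 (adjusted p = 0.000341 by limma). Oasl1 and Mx1 followed at -1.59 ± 0.23 and -1.55 ± 0.22.

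Genes that respond mainly to interferon gamma gave other values. Of 26 measured, 15 rose in AJ (7.03% of all genes did) and 19 in C3H (3.93% of all genes). The interaction was above 0 for 23. None was called, which says little for 26 genes with 2.15% of all genes called. The list median was 0.26, beside 0.06 over all genes, and 0.18 with arrays centred on their medians. Mean log2 level was 7.90 ± 0.20 (SD, n = 5) in AJ and 8.12 ± 0.10 in C3H with allergen, and 7.09 ± 0.10 and 7.01 ± 0.07 with PBS. The 2 interferon lists were not tested against each other. Outside the lists, and named after their values were seen, Irf2, a repressor of interferon genes, had an AJ effect of -0.49 with a C3H rise of 0.71 (interaction 1.21 ± 0.27, adjusted p = 0.00911 by limma). Il18bp, a decoy for interleukin 18, rose by 1.19 in C3H with 0.10 in AJ.

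**Figure D3:**
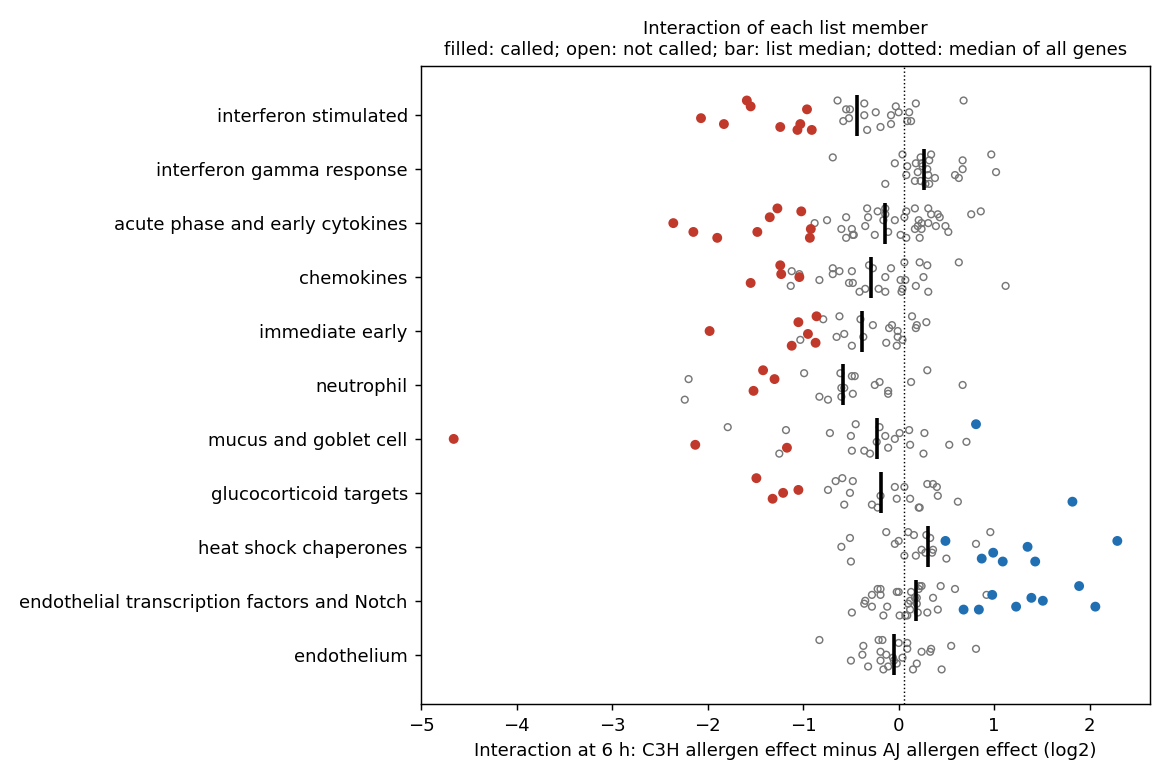
Interaction at 6 h (log2, x axis) of every measured member of 11 gene lists; filled points are called genes, open points genes that were not called, bars list medians and the dotted line the median of all genes. Called interferon-stimulated, acute phase, chemokine, immediate early and neutrophil genes are all below 0, called chaperones and endothelial transcription factors all above 0, and the interferon gamma and endothelium lists hold no called gene.

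Chemokines rose in both strains, 20 of 34 in AJ and 19 in C3H, and 4 were called in the interaction, all negative. Ccl12, a monocyte attractant, read 4.69, 6.96, 15.6, 19.2 and 6.68 with PBS and 142, 126, 101, 156 and 104 with allergen in AJ. In C3H it read 44.2, 6.72, 32.2, 13.1 and 42.5 with PBS and 44.8, 81.8, 68.5, 51.8 and 53.1 with allergen. Treatments did not overlap in either strain, though narrowly in C3H, and 3 C3H PBS arrays lay above all AJ PBS arrays. The interaction was -1.55 ± 0.32 (adjusted p = 0.00384 by limma). Ccl4 (-1.24), Ccl20 (-1.23) and Ccl5 (-1.04) were the others; Ccl20, which draws dendritic cells and Th17 cells, lost its call in 15 of the 32 alternatives that tested it. Among 21 chemokine receptors, Ccr1 (-1.48), the scavenger Ackr3 (-1.30) and Ccrl2 (-1.0) were called. On the 6 h arrays alone, 1 of the 34 chemokines was called.

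Neutrophil markers rose in both strains as well, 15 of 22 in AJ and 10 in C3H. Summed over the list, intensity ran from 2649 to 4636 in AJ and 3267 to 6297 in C3H with PBS, and from 11670 to 15536 and 7150 to 17268 with allergen. The C3H allergen arrays split, with mean log2 levels of 7.82 and 7.94 in replicates 1 and 2 and at most 7.26 in the other 3. The granule or receptor genes called were 3: Ngp (-1.52), Camp (-1.42) and the decoy receptor Il1r2 (-1.30). S100a8 and S100a9, the subunits of calprotectin, had larger values that were not called, -2.24 ± 0.65 and -2.20 ± 0.70 (adjusted p = 0.0585 and 0.0903 by limma). Of the 22, 2 stayed under an intensity of 16 on all allergen arrays of each strain. In whole lung, fewer cells of a type and less RNA per cell cannot be told apart. The part of neutrophil number in the cytokine and chemokine values was not tested. Of 27 T and NK cell genes, Gzmb, a cytotoxic granule protease (-1.68 ± 0.39), and Ctla4, a T cell inhibitory receptor (-1.44 ± 0.35), were called.

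Immediate early genes, transcribed within minutes of a stimulus, were called for 6 of 26, all negative, with a list median of -0.38; 11 rose in AJ and 4 in C3H. Egr1, a zinc finger transcription factor, read 341, 309, 375, 280 and 228 with PBS and 1113, 1519, 1087, 819 and 754 with allergen in AJ. The C3H arrays read 650, 419, 1348, 1019 and 693 with PBS and 784, 434, 840, 524 and 669 with allergen. With PBS, C3H was above AJ, without overlap and by 1.29 (adjusted p = 0.00043 by limma), and C3H showed no called effect of allergen (-0.27). Its interaction of -1.98 ± 0.33 (adjusted p = 0.000356 by limma) is the strain difference with allergen, -0.69 and not called (adjusted p = 0.0572 by limma, groups overlapping), minus the PBS difference. Fos (-1.12), Dusp1 (-1.05), Ier2 (-0.95), Zfp36 (-0.87) and Nr4a1 (-0.86) were the others. Hbegf, an EGF receptor ligand, also differed with PBS alone: C3H PBS arrays ran from 635 to 955 and AJ PBS arrays from 153 to 231.

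Of 25 glucocorticoid target genes, 5 were called. Errfi1 (-1.49), Per1 (-1.32), Cebpd (-1.21) and Dusp1 (-1.05) were negative. Zbtb16, a transcriptional repressor strongly induced by glucocorticoid, was positive and differed between strains with PBS alone. It read 307, 427, 351, 203 and 391 with PBS and 98.9, 102, 119, 157 and 188 with allergen in AJ. C3H values were 81.6, 26.4, 42.6, 95.9 and 63.3 with PBS and 76.6, 138, 90.4, 102 and 75.7 with allergen. AJ PBS arrays stood above all other arrays; the interaction was 1.82 ± 0.48 (adjusted p = 0.0309 by limma), the call was lost in 15 of 33 alternatives, and its other probe set gave 0.08. Among 20 clock genes, Nfil3 (-1.15) and Tef (0.70) were called beside Per1. The time of day of sampling is not given in the labels.

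**Figure D4:**
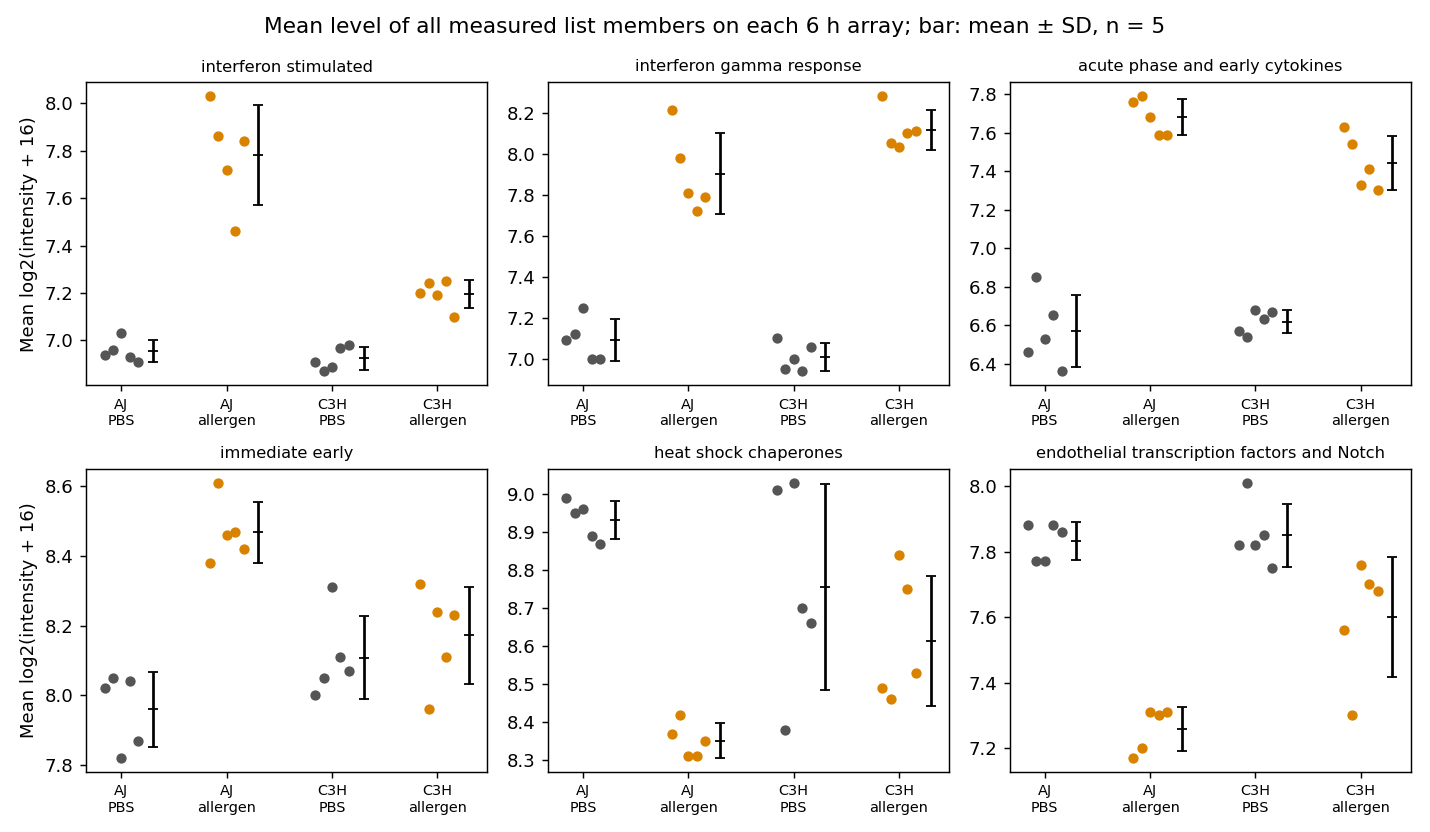
Mean log2(intensity + 16) over all measured members of 6 lists on each 6 h array (points), with the group mean and SD (n = 5) beside them; grey is PBS and orange allergen. AJ allergen arrays lie above all others for interferon-stimulated genes (7.46 to 8.03) and below all others for heat shock chaperones, apart from C3H PBS replicate 2 (8.38), which lies inside their range of 8.31 to 8.42.

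Heat shock chaperones, which refold damaged proteins under the control of heat shock factor, were lower with allergen in AJ and mostly not called in C3H. Of 26 measured, 13 fell in AJ and 2 in C3H, and 7 had a called interaction, all positive: Hspa1b, Hspa1a, Hsph1, Chordc1, Hspd1, Hsp90aa1 and Ahsa1. Hsph1 differed between strains with PBS alone (C3H minus AJ -0.98, adjusted p = 0.000508 by limma), and its difference with allergen, 0.37, was not called (adjusted p = 0.221 by limma). The list median was 0.31, beside 0.06 over all genes. Hspa1b and Hspa1a, which encode nearly the same inducible HSP70, and Hspd1, which encodes the mitochondrial HSP60, are shown because their upstream 250 bases hold the heat shock core GAANNTTC, in capitals. From RefSeq, build GRCm38.p6, they lie on the minus strand at chr17:34959239-34959488 (Hspa1b), chr17:34972157-34972406 (Hspa1a) and chr1:55087933-55088182 (Hspd1), with the match 104, 104 and 139 bases before the start.
Hspa1b: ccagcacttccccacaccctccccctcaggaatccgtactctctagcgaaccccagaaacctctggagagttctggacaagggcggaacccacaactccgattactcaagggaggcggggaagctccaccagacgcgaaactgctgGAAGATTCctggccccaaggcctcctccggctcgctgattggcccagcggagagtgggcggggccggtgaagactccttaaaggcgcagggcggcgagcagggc
Hspa1a: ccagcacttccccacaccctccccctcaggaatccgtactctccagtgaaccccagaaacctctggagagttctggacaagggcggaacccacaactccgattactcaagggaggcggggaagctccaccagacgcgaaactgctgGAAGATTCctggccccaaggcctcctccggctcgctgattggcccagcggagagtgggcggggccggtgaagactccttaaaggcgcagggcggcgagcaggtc
Hspd1: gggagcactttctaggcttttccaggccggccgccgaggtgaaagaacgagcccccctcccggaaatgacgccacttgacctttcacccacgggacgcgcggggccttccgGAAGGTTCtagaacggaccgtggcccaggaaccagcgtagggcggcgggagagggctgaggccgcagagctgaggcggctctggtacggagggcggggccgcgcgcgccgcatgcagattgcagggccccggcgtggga

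The Hspa1a and Hspa1b windows differed at 3 of 250 positions. Of the 7 called chaperones, 6 had a window and 3 held this core, against 6.69% of 32851 windows of 250 bases; the core is its own reverse complement, so both strands were covered.

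Among called genes, Hspa1b had the largest positive interaction. It read 2571, 2273, 2829, 2001 and 1801 with PBS and 287, 248, 302, 256 and 310 with allergen in AJ. Among C3H arrays it was at 1954, 1587, 3014, 2008 and 1655 with PBS and 1315, 602, 2422, 1768 and 913 with allergen. The AJ allergen arrays were tight and below all others, while the C3H allergen arrays were scattered and overlapped their PBS arrays. AJ fell by 2.95, the C3H effect of -0.66 was not called, and the interaction was 2.29 ± 0.33 (adjusted p = 3.82e-05 by limma). Its other 2 probe sets gave 2.10 and 2.55. At 24 h the PBS levels were far lower, 7.80 in AJ and 7.46 in C3H on the log2 scale against 11.16 and 10.97 at 6 h, and the interaction there was 0.16. Hspa1a fell in both strains (interaction 1.43 ± 0.36, adjusted p = 0.0217 by limma), and the near-identity of the pair means that their probe sets may share RNA. Without C3H allergen replicate 3, 4 of the 26 chaperones were called, and on the 6 h arrays alone 2 were. Hmox1, the heme oxygenase also induced by stress, had an interaction of 1.35 that was lost in 10 of 33 alternatives.

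Endothelial transcription factors and Notch genes were the other list with 4 or more calls that were all positive. These factors set vessel identity and respond to flow and inflammatory signals. Of 40 measured, 18 fell in AJ and 5 in C3H, and 8 were called: Sox18, Hey1, Meis1, Smad6, Tbx3, Sox17, Smad7 and Gata6. The list median was 0.18, and 0.10 with arrays centred on their medians. Sox18, which drives vessel and lymphatic development, read 1123, 1138, 879, 908 and 926 with PBS and 142, 136, 226, 177 and 307 with allergen in AJ. In C3H it read 824, 1303, 742, 631 and 706 with PBS and 719, 393, 820, 850 and 801 with allergen. Every AJ allergen array lay below every other array, and of the C3H allergen arrays replicate 2 alone was below its PBS range. The interaction was 2.06 ± 0.26 (adjusted p = 3.22e-06 by limma).

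Hey1, a repressor that Notch induces, read 281, 338, 329, 338 and 302 with PBS and 41.1, 61.3, 83.5, 39.1 and 58.4 with allergen in AJ. The C3H arrays read 261, 314, 291, 261 and 199 with PBS and 196, 160, 180, 265 and 239 with allergen. The AJ groups were far apart, and the C3H groups overlapped. The interaction was 1.89 ± 0.20 (adjusted p = 2.24e-07 by limma). Meis1, a homeobox factor, fell in both strains, with effects of -2.53 in AJ and -1.02 in C3H, with C3H allergen arrays spread from 15.6 to 121. Smad6 (1.39) and Smad7 (0.84) are inhibitors in the BMP and TGF-beta pathways. Hoxb5 (1.45) and Meox2 (1.36), further homeobox genes of lung mesenchyme and vessels, were called outside this list. Of 27 general endothelium markers, 6 fell in AJ (12% of all genes did) and 5 in C3H (3.69% of all genes). None was called in the interaction, which says little for 27 genes with 2.15% of all genes called. The list median was -0.05. Mean log2 endothelium level was 8.99 ± 0.16 in AJ and 9.05 ± 0.20 in C3H with allergen (SD, n = 5).

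The remaining named genes with large values have varied roles. Kcne4, a potassium channel subunit, had an interaction of -2.03 ± 0.23 (adjusted p = 4.11e-07 by limma): AJ arrays ran from 74.4 to 97.9 with PBS and from 323 to 451 with allergen, and all 10 C3H arrays from 60.3 to 122. Inhbb, a subunit of activin and inhibin, had -1.62 ± 0.23. Trmt1l, a tRNA methyltransferase relative, had 1.48 ± 0.26, and Prickle1, a planar polarity protein, 1.36 ± 0.22. Thbs1, a matrix glycoprotein that activates TGF-beta, rose in both strains with -1.24. Kcnk2, a potassium channel placed in the club cell list, had 1.21, and C3H minus AJ was -1.03 with PBS alone and 0.18, not called, with allergen. Kit, the stem cell factor receptor of mast cells, had 0.90. Of 40 lists, 17 held no called gene, among them complement, MHC class II presentation, proteasome, cytosolic ribosomal proteins, oxidative phosphorylation, and the alveolar, ciliated and smooth muscle markers. These 17 lists held 4 to 51 measured genes. With 2.15% of all genes called, lists of such sizes may hold no call, so this says little about them. Of 10 MHC class II genes, 8 had interactions below 0 (list median -0.32), and 5 rose in AJ and 0 in C3H. Tlr4, the endotoxin receptor that is mutated in the C3H/HeJ substrain, had 0.10 ± 0.19 and no called allergen effect in either strain. In all, 190 of the 267 called genes stood in none of the lists, and 77 stood in a list. The lists held 952 of the 12393 genes tested, so most genes stood in none.

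At 24 h, 57 genes were called (0.460%). That count became 11 with the muscle list mean as a covariate and 200 with array weights. Of the 267 genes called at 6 h, 4 were among the 57, all with the same sign: Itln1, Ccl4, Clec4d and Tnfrsf1b. Itln1 was at -3.97 (adjusted p = 8.13e-09 by limma). The 24 h value was smaller in size for 264 of the 267, and this comparison is not independent of their choice at 6 h. The sign was shared by 171 of 267 (64%), beside 47.6% of all genes. It was shared by 92 of the 125 negative genes (73.6%) and by 79 of the 142 positive genes (55.6%). The difference between times was tested itself, and it contains the 6 h interaction by which the 267 were chosen. It was called for 42 genes (0.339%, and 149 genes with array weights). Of the 267, 31 were among them, a count that is not independent of their choice at 6 h. These included Sox18 (24 h minus 6 h, -2.16, adjusted p = 0.00317), Hey1 (-1.57, adjusted p = 0.00898), Hspa1b (-2.13, adjusted p = 0.0306), Mx2 (2.18, adjusted p = 0.0384), Kcne4 (1.48, adjusted p = 0.0286) and Adamts1 (1.39, adjusted p = 0.0285), all by limma. For the others the difference between times was not called, which does not show that it was absent.

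**Figure D5:**
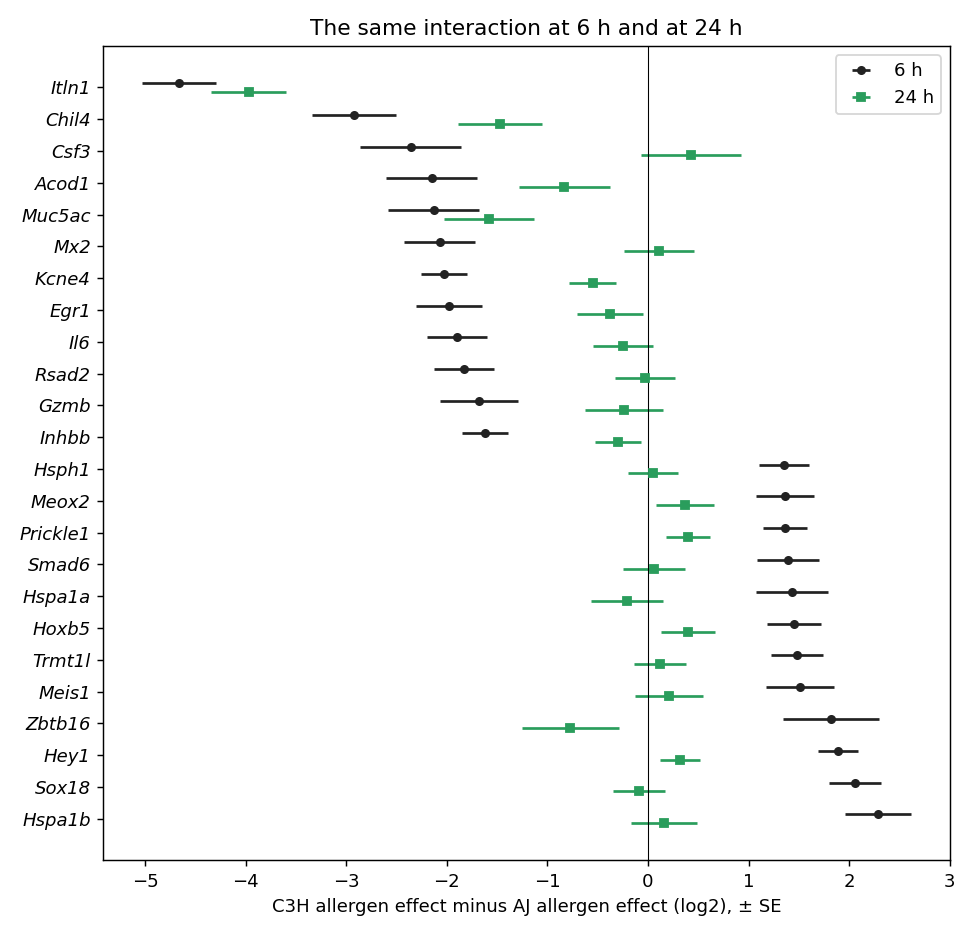
Interaction (log2, ± SE) at 6 h (black circles) and at 24 h (green squares) for the 12 largest called genes of each sign at 6 h. Itln1 stays far below 0 at both times (-4.66 and -3.97), while Mx2, Sox18 and Hspa1b lie near 0 at 24 h (0.11, -0.09 and 0.16).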

How the data were processed

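The authors deposited linear intensity values, 1 for each probe set, of 40 lung arrays. The 2%-trimmed mean was 150.036 to 150.046 on each array, so the deposited intensity values had been scaled to a common trimmed mean; the software and build are not given in the sources used here. Of 22690 probe sets, 64 controls, 691 with several symbols and 1555 with none were left out, leaving 20380 and 12393 genes, each by its brightest probe set. Of the values tested, 13.6% lay below the pseudocount of 16, which understates changes of dim genes. Using R 4.3.3 and limma 3.58.1, lmFit estimated the mean of each of 8 groups from the 40 arrays together, and eBayes moderated the variances (residual degrees of freedom 32, prior 4.62). Tests were two-sided, adjusted by Benjamini-Hochberg over all genes at 0.05. ± gives limma's standard error for effects, and the SD where stated. The fit was tested on simulated data. The comparison, the 40 gene lists and the rule for named genes were chosen with earlier results of these data known. The rule names the 12 largest called values of each sign, the 3 largest called members of each list, and Il4, Il5, Il13, Ccl11, Muc5ac, Clca1, Itln1, Hc and Tlr4. Upstream sequences are RefSeq, GRCm38.p6. The number of arrays limits the precision. Alternatives were other scalings, pseudocounts, probe set and variance choices, a replicate block, a muscle covariate, and leaving arrays out.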

Additional observations from a re-analysis of the deposited data

Results flagged for a closer look

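The allergen effect differed between AJ and C3H at 6 h, by the limma test of the difference itself (adjusted p under 0.05), for 57 of the 64 named genes. This count is no rate, because apart from the genes named in any case the rule took only called genes. Of all genes tested, 267 of 12393 (2.15%) were called. Interaction values, C3H minus AJ on the log2 scale, were lowest for Itln1 -4.66, Chil4 -2.92, Csf3 -2.36, Acod1 -2.15, Muc5ac -2.13, Mx2 -2.07, Kcne4 -2.03, Egr1 -1.98, Il6 -1.90, Rsad2 -1.83, Gzmb -1.68, Inhbb -1.62, Oasl1 -1.59, Ccl12 -1.55, Ngp -1.52, Adamts1 -1.52, Errfi1 -1.49 and Ccr1 -1.48. They were between those and the smallest for Ctla4 -1.44, Camp -1.42, Per1 -1.32, Ackr3 -1.30, Il1r2 -1.30, Ccl4 -1.24, Thbs1 -1.24, Ccl20 -1.23, Fcgbp -1.17, Tnfrsf12a -1.16, Nfil3 -1.15, Fos -1.12 and Gadd45g -1.11. Smaller negative values were Dusp1 -1.05, Clec4d -1.04, Ccrl2 -1.0, Hbegf -0.86, Ptger4 -0.79, Cish -0.78, Alox5ap -0.75 and Tnfrsf1b -0.69. Positive values were Hspa1b 2.29, Sox18 2.06, Hey1 1.89, Zbtb16 1.82, Meis1 1.51, Trmt1l 1.48, Hoxb5 1.45, Hspa1a 1.43, Smad6 1.39, Meox2 1.36, Prickle1 1.36, Hsph1 1.35, Hmox1 1.35, Kcnk2 1.21, Kit 0.90, Dusp7 0.79, Tef 0.70 and Cd209a 0.64.

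In groups of 5 arrays, an array was marked where its gap to the nearest other array was over 0.71 of the group's range (Dixon's 95% value). Chance marks about 1 in 20 groups; here 12 of 256 were marked. C3H allergen replicate 2 was high for Itln1 (33.4, others 4.16 to 8.85) and Camp (28, others 5.63 to 8.8) and low for Sox18 (393, others 719 to 850). C3H PBS replicate 2 was high for Hoxb5 (175, others 57.6 to 80.9) and Prickle1 (462, others 344 to 355) and low for Kcnk2 (60.1, others 124 to 146) and Ptger4 (81.2, others 99 to 104). AJ PBS replicate 3 was high for Ackr3 (166, others 89.4 to 97.4) and Kcnk2 (345, others 221 to 242), and AJ PBS replicate 2 for Clec4d (102, others 65.2 to 72.5). In AJ with allergen, replicate 2 was high for Dusp1 (1805, others 1330 to 1382) and replicate 5 low for Il13 (11.7, others 37.6 to 41).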

How the results depend on the processing

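Of 57 named called genes, 30 kept their call in every alternative that tested them (33, or 32 for Mx2 and Il6, which the filter on dim genes left out), 17 lost it in 1 to 3 and 10 in 4 or more (Zbtb16, Ccl20, Ccr1, Cish, Clec4d, Hmox1, Hbegf, Gadd45g, Alox5ap and Tnfrsf12a), and none changed sign. The 267 calls became 233 with quantile normalization and 204 with median centring, where 68 were positive. On the 6 h arrays alone 112 genes were called (59 negative, 53 positive). They held 1 chemokine, 5 acute phase genes, 5 interferon-stimulated genes, 2 chaperones and 4 endothelial transcription factors. This fit has fewer samples to estimate the spread. The main fit shares each gene's spread between both times, so genes quieter at 24 h gain smaller standard errors at 6 h. For Mx2 the SD with allergen in AJ was 1.10 at 6 h and 0.13 at 24 h. The cause of the lower count was not tested. Leaving out the dimmest genes gave 5 acute phase genes. That filter left Csf3, Acod1 and Il6 untested, so they did not lose a call there. The muscle covariate gave 11 genes at 24 h. Array weights gave 478 (191 and 287), 200 at 24 h and 149 between times. Without both C3H arrays numbered 2, an alternative added after seeing the data, 408 were called (193 and 215). Leaving out each array in turn gave 196 to 391 genes, 98 to 173 negative and 96 to 238 positive, 49 to 71 at 24 h and 24 to 78 between times. By list these fits gave 3 to 6 chemokines, 3 to 5 mucus genes, 9 to 10 acute phase genes, 7 to 10 interferon-stimulated genes, 4 to 8 chaperones, 4 to 5 glucocorticoid targets, 4 to 7 immediate early genes and 7 to 9 endothelial factors. The lowest total was without C3H allergen replicate 3 (196), the highest without AJ allergen replicate 1 (391). Il5 turned positive with a pseudocount of 64 (0.01), without the arrays lettered b (0.11) and in 7 of 20 fits without an array (range -0.15 to 0.07). Tlr4 turned negative with array weights (-0.04), without both C3H arrays numbered 2 (-0.08) and without C3H PBS replicate 2 (-0.01; range over such fits -0.01 to 0.19). The cause was not tested. Same-numbered arrays showed little shared deviation (30 pairs, correlations -0.26 to 0.27, median -0.02, 6 pairs over 0.1). Low correlations cannot show that the numbers do not pair arrays, so pairing stays undetermined. With the replicate block 285 genes were called. Dim genes limit the precision of fold sizes.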

Other observations

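The largest interaction values that were not called belonged mainly to keratinizing squamous epithelium, named after their values were seen. Of genes beyond 2 in size on the log2 scale, 9 were called and 15 were not, with standard errors of 0.65 to 2.23. Among those 15 were Krt4 and Krt13, keratins of stratified squamous epithelium (4.81 ± 2.23 and 3.89 ± 1.91), and the cornified layer genes Krtdap (3.48), Lor (2.42), Rptn (2.46), Lce3a (2.58) and Sprr3 (2.17). Krt4 ran from 8.25 to 2820 (median 24.6) with PBS and 5.98 to 932 (median 6.7) with allergen in AJ, and from 7.51 to 3600 (median 13.9) and 939 to 2900 (median 2160) in C3H. All 5 C3H allergen arrays thus lay above the AJ allergen arrays, narrowly at the edge, and each other group held both low and high arrays. Ada, an enzyme abundant in such epithelium, had a like value (2.50 ± 1.52). How much upper airway or oesophageal tissue each sample held was not tested.

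Iglv1, an immunoglobulin light chain segment, had -2.37 ± 0.78 (adjusted p = 0.106 by limma): its AJ allergen arrays read 277 to 1310 (median 641) and its C3H allergen arrays 51.6 to 989 (median 202).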
